A study of Homo sapiens with 9 samples.

Results

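B cell receptor signalling genes are described here in Ramos cells, a human line from an EBV-negative Burkitt lymphoma, before and during exposure to CHIR99021, an inhibitor of the kinase GSK-3. The set was a list of 42 gene symbols covering the receptor's signalling chains, its co-receptors, kinases, phosphatases, adaptors and the PI3K, calcium and NFAT effectors, listed by function. All 42 were found among the 60234 genes of the count table, and 40 had enough reads to be tested. The groups were untreated cells (0 h), cells kept for 3 h in 3 µM CHIR99021 and cells kept for 6 h in 3 µM CHIR99021, with 3 libraries of total RNA in each, described by the submitters as biological replicates. All came from the same line in the same medium, and the labels name no agent other than the inhibitor. No untreated cells kept for 3 h or 6 h were analysed here, so the inhibitor and the time in culture cannot be told apart, and both comparisons with 0 h share the same untreated libraries.

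The B cell receptor pairs a membrane immunoglobulin with the CD79A and CD79B chains, whose cytoplasmic tyrosines are phosphorylated by Src family kinases and then bound by SYK. SYK and BTK, held together by the adaptor BLNK, activate phospholipase C gamma 2 (PLCG2), and its products open calcium stores and activate protein kinase C and RAS exchange factors, while PI3K is recruited through co-receptors and adaptors. Inhibitory receptors such as CD22 and CD72 bring phosphatases to the complex and damp the signal. Burkitt lymphoma cells are known for tonic signalling through the receptor and PI3K.

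Libraries held 46359911 to 52880876 reads in genes. The cells carried the markers of their label: all 10 B cell markers lay above 1 CPM, the read count normalised to library size, while CD3D, CD2, CD7, CD8A and CD8B of T cells and S100A8, S100A9, FCN1 and TYROBP of myeloid cells had no read in any library. The summed CPM of the 10 B cell markers was 4027.5 to 4164.9 at 0 h, 3592 to 3774.3 at 3 h and 3496.9 to 3678.9 at 6 h, so it was lower in all treated libraries. The summed CPM of the 10 T cell markers was 2.892 to 3.147 at 0 h, 3.6245 to 4.0021 at 3 h and 4.1905 to 4.6404 at 6 h, mostly from IL7R; the part of these shifts in the results was not tested. Untreated replicate 3 stood apart from the other 2 untreated libraries (chi-square per degree of freedom of 32.6 and 29.2, against 1.74 between replicates 1 and 2), and values without it are given where they change a call. By the same measure 3 h replicate 6 gave 8.46 and 8.14, against 2.67 between 3 h replicates 5 and 7. For 6 h replicate 10 the values were 13.5 and 10.8, against 5.92 between 6 h replicates 9 and 11. Levels are CPM scaled by edgeR's trimmed mean of M-values (TMM), and a gene was called higher or lower where its adjusted p in edgeR's quasi-likelihood test, corrected over 15847 genes, was under 0.05.

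Most of the receptor's signalling genes were lower after CHIR99021, and the median difference from 0 h was larger at 6 h than at 3 h. Of the 40 tested members, 38 passed at some time (77.7% of all genes tested). At 3 h, 31 passed (66.3% of all genes), 23 lower and 8 higher. Among all genes tested 33.5% were lower and 32.8% higher at that time. At 6 h, 36 passed (70.8% of all genes), 27 lower and 9 higher, against 35% and 35.7% of all genes. The treated libraries did not overlap the untreated ones for 29 members at 3 h (70.2% of all genes) and 35 at 6 h (71.7%). The median log2 fold change of the 40 members was -0.22 at 3 h and -0.49 at 6 h, and that of all genes was -0.01 and 0.02. In bulk RNA, fewer cells expressing a gene and less RNA per cell cannot be told apart. The split depends on the scaling: with upper-quartile factors it was 30 lower and 4 higher at 3 h and 29 and 5 at 6 h, and with library size alone 30 and 1 at 3 h and 30 and 3 at 6 h. These scalings moved the median log2 fold change of all genes to -0.17 and -0.22 at 3 h and to -0.13 and -0.22 at 6 h.

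Falls were also the larger changes. At 3 h, 12 members were called at least 1.5-fold lower (19.5% of all genes) and 0 at least 1.5-fold higher (14.5%). At 6 h, 18 members were at least 1.5-fold lower (22.2% of all genes), and ZAP70 alone was at least 1.5-fold higher (17.2%). Past 2-fold the members were close to the background, with 4 lower at 3 h (10.6% of all genes) and 5 at 6 h (13%). The members called lower at both times numbered 22 (27.7% of all genes), and 9 of them, CD81, CD22, CD72, PTPN6, INPP5D, BLNK, DAPP1, PLCG2 and STIM1, were lower again at 6 h than at 3 h (8.54% of all genes). PIK3CA, VAV2, PRKCB and NFATC1 were called lower at 6 h and not at 3 h (6.51% of all genes). ITPR1 was called lower at 3 h alone (4.9%). Higher at both times were 6 members, CD79A, LYN, ZAP70, PIK3AP1, PIK3R1 and MALT1 (27.4% of all genes), a group that the other scalings reduce. CD79B was called higher at 3 h alone (4.64%), SYK, BTK and VAV1 at 6 h alone (7.5%), and BCL10 higher at 3 h and lower at 6 h (0.795%). GRB2 and SOS1 passed at neither time (19.7% of all genes).

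**Figure D1:**
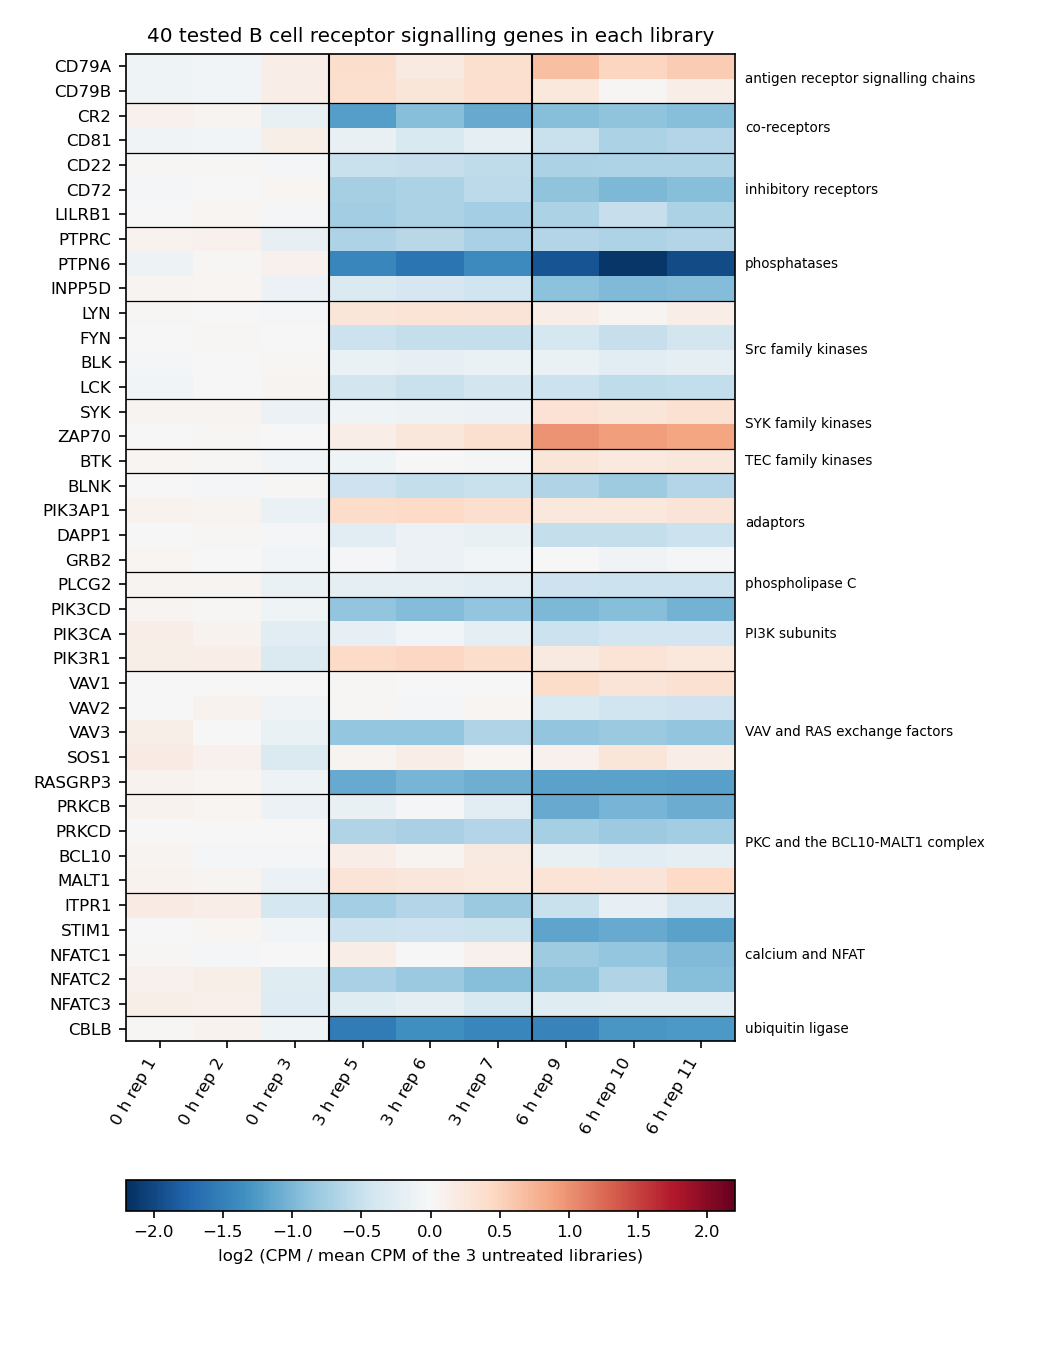
Level of each of the 40 tested members in each library, as log2 of its CPM over the mean CPM of the 3 untreated libraries, with members in rows grouped by role and libraries in columns. Blue rows outnumber red ones in the treated columns, PTPN6 and CBLB are the deepest blue, and ZAP70 at 6 h is the deepest red.

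With TMM scaling both signalling chains of the receptor were higher at 3 h, and CD79A also at 6 h. CD79A (ENSG00000105369) and CD79B (ENSG00000007312) form the heterodimer that carries the signal into the cell. The CD79A level was 477, 488 and 562 CPM in the untreated libraries, 667, 587 and 647 CPM at 3 h and 805, 703 and 745 CPM at 6 h. No library of one time overlapped another, and each later time was higher. Its log2 fold change was 0.32 (SE 0.072, edgeR adjusted p = 0.00158) at 3 h and 0.56 (SE 0.072, edgeR adjusted p = 9.84e-06) at 6 h, or 1.48-fold. CD79B stood at 359, 368 and 424 CPM in the untreated libraries, 491, 459 and 496 CPM at 3 h and 453, 393 and 423 CPM at 6 h. It was highest at 3 h, and its 6 h values overlapped those at 0 h. Its log2 fold change was 0.33 (SE 0.069, edgeR adjusted p = 0.000808) at 3 h and 0.14 (SE 0.069, edgeR adjusted p = 0.0851) at 6 h. The 3 h rise of CD79A had an adjusted p of 0.0668 with upper-quartile factors and 0.161 with library size alone, and that of CD79B had 0.107 with library size alone. Without untreated replicate 3, CD79B at 6 h passed as higher (log2 0.21, edgeR adjusted p = 0.0019), as it did without 6 h replicate 10 (edgeR adjusted p = 0.0311).

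Within each library, CD79A had 1.33, 1.32 and 1.32 reads per CD79B read at 0 h, 1.36, 1.28 and 1.30 at 3 h and 1.78, 1.79 and 1.76 at 6 h. The 0 h and 3 h values overlapped, and all 3 libraries at 6 h were higher. These ratios need no scaling between libraries, and the pairs for which they are given were chosen after their values were seen, so they are not tested.

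The measured co-receptors fell. CR2 (ENSG00000117322), the complement receptor CD21 that acts as a co-receptor, had 18.3, 17.8 and 15.3 CPM in the untreated libraries, 7.40, 8.91 and 7.90 CPM at 3 h and 8.96, 9.22 and 8.93 CPM at 6 h. All treated libraries were below all untreated ones, by 2.12-fold at 3 h (log2 -1.08, SE 0.086, edgeR adjusted p = 7.49e-08) and 1.90-fold at 6 h (log2 -0.92, SE 0.086, edgeR adjusted p = 3.03e-07). CD81 (ENSG00000110651), a tetraspanin of the co-receptor complex, had 435, 444 and 502 CPM, then 411, 366 and 399 CPM at 3 h and 328, 284 and 295 CPM at 6 h. The 3 groups did not overlap and each later time was lower, the log2 fold change being -0.23 (SE 0.07, edgeR adjusted p = 0.00964) at 3 h and -0.61 (SE 0.07, edgeR adjusted p = 3.18e-06) at 6 h.

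All 3 tested inhibitory receptors were lower at both times. CD22 (ENSG00000012124), the sialic acid-binding receptor whose phosphorylated tail recruits the phosphatase PTPN6, had 774, 777 and 739 CPM at 0 h, 541, 538 and 520.0 CPM at 3 h and 471, 476 and 479 CPM at 6 h. The groups did not overlap, and the log2 fold change was -0.52 (SE 0.044, edgeR adjusted p = 1.41e-07) at 3 h and -0.68 (SE 0.044, edgeR adjusted p = 6.6e-09) at 6 h. CD72 (ENSG00000137101), another B cell receptor that recruits PTPN6, had 28.1, 28.9 and 30.00 CPM, 17.5, 17.8 and 19.4 CPM and 15.6, 14.6 and 15.1 CPM at the 3 times. It too was lower at each step, by 1.92-fold at 6 h (log2 -0.94, SE 0.06, edgeR adjusted p = 6.63e-09). LILRB1 (ENSG00000104972), a receptor for MHC class I, had 38.7, 39.8 and 37.9 CPM at 0 h, 22.9, 23.8 and 23.2 CPM at 3 h and 23.8, 27.3 and 23.9 CPM at 6 h. It fell by 3 h (log2 -0.73, SE 0.06, edgeR adjusted p = 9.5e-08) and was 1.55-fold below 0 h at 6 h (log2 -0.63, edgeR adjusted p = 3.59e-07). LILRB1 has near-identical relatives in its gene family, and exons of CD72 share 15% of their bases with TESK1 on the opposite strand, so their counts are less certain. FCGR2B, the inhibitory Fc receptor, was too low to test, with 1, 2 and 2 reads at 0 h, 7, 1 and 4 at 3 h and 1, 2 and 1 at 6 h, where 3 reads correspond to 0.0516 to 0.0692 CPM; its near-identical paralogues make even these uncertain.

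The 3 phosphatases were lower at both times, and PTPN6 and CBLB fell furthest of the 40 tested members at both times. PTPN6 (ENSG00000111679), the tyrosine phosphatase SHP-1, had 12.9, 14.2 and 14.9 CPM in the untreated libraries, 5.21, 4.62 and 5.29 CPM at 3 h and 3.74, 3.17 and 3.58 CPM at 6 h. No group overlapped another, and the level was 2.78-fold lower at 3 h (log2 -1.48, SE 0.088, edgeR adjusted p = 4.24e-09) and 4.0-fold lower at 6 h (log2 -2.0, SE 0.092, edgeR adjusted p = 2.65e-10). INPP5D (ENSG00000168918), the lipid phosphatase SHIP1 that removes the product of PI3K, had 160.2, 159 and 140.4 CPM at 0 h, 122, 118 and 113 CPM at 3 h and 81.5, 77.9 and 78.9 CPM at 6 h. Most of its fall came after 3 h, at log2 -0.38 (SE 0.057, edgeR adjusted p = 4.61e-05) at 3 h and -0.95 (SE 0.058, edgeR adjusted p = 3.89e-09) at 6 h. PTPRC (ENSG00000081237), the phosphatase CD45 that frees Src family kinases from inhibition, had 269, 273 and 224 CPM at 0 h, 159, 167 and 156 CPM at 3 h and 164, 159 and 164 CPM at 6 h. It was down 1.59-fold at 3 h (edgeR adjusted p = 7.86e-07) and 1.57-fold at 6 h (edgeR adjusted p = 7.89e-07), and the treated groups overlapped. CBLB (ENSG00000114423), a ubiquitin ligase that targets activated receptor complexes, had 15.4, 16.01 and 14.2 CPM at 0 h, 5.25, 5.99 and 5.62 CPM at 3 h and 5.51, 6.24 and 6.34 CPM at 6 h. The treated groups overlapped, at log2 -1.43 (SE 0.082, edgeR adjusted p = 3e-09) at 3 h, -1.33 (SE 0.082, edgeR adjusted p = 4.3e-09) at 6 h and 0.10 (edgeR adjusted p = 0.392) between the treated times.

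**Figure D2:**
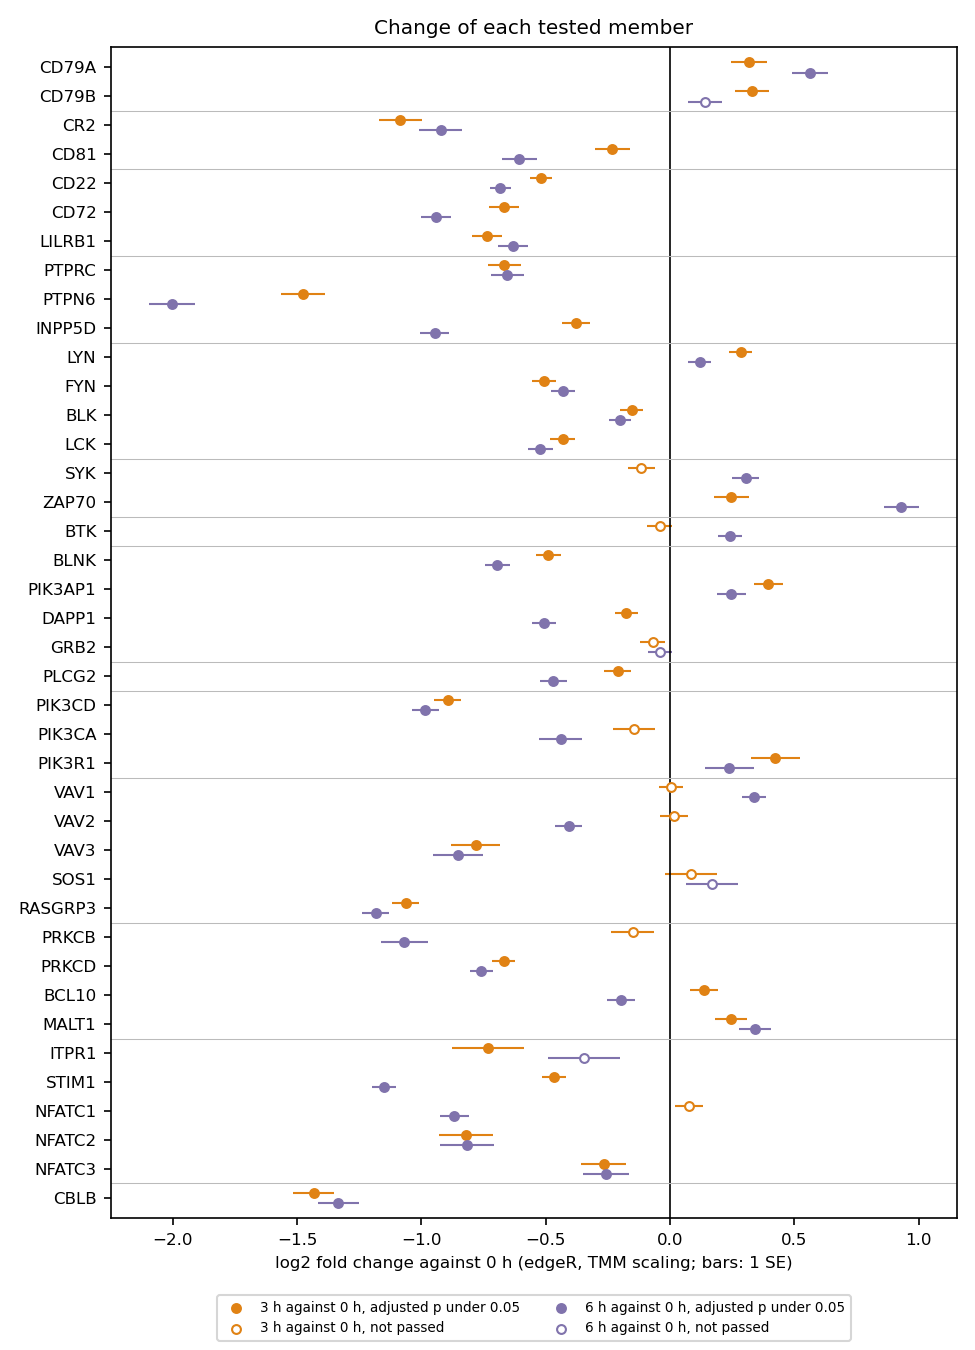
Log2 fold change of each tested member at 3 h and at 6 h against 0 h from edgeR, with bars of 1 SE, filled where the adjusted p was under 0.05 and open where it was not. PTPN6 reached -1.48 at 3 h and -2.0 at 6 h, and the inhibitory receptors and phosphatases lie left of 0 at both times.

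Among the Src family kinases, LYN was higher with TMM scaling and the other 3 were lower. LYN (ENSG00000254087), which phosphorylates both the CD79 chains and the inhibitory receptors, had 246, 243 and 236 CPM at 0 h, 291, 298 and 295 CPM at 3 h and 269, 251 and 268 CPM at 6 h. It was highest in the 3 h libraries, at log2 0.28 (SE 0.046, edgeR adjusted p = 7.86e-05, and 0.0644 with library size alone). Its smaller 6 h difference (log2 0.12, edgeR adjusted p = 0.0309) changed sign to -0.03 with upper-quartile factors and to -0.12 (edgeR adjusted p = 0.0131) with library size alone. The 6 h call of LYN was also lost without untreated replicate 1 or 2 (edgeR adjusted p = 0.0553 and 0.0742) and without 6 h replicate 9 or 11 (0.0931 and 0.0865). FYN had a mean of 96.03 ± 1.34 CPM (SD, n = 3) at 0 h, 67.6 ± 1.47 at 3 h and 71.2 ± 3.16 at 6 h. It was 1.42-fold lower at 3 h (edgeR adjusted p = 5.11e-07). LCK, better known from T cells, went from 135 ± 5.79 CPM (SD, n = 3) to 100.3 ± 3.66 at 3 h and 94.3 ± 3.11 at 6 h. BLK, the B lymphoid kinase, went from 213 ± 5.39 CPM (SD, n = 3) to 191 ± 2.75 at 3 h and 185 ± 6.31 at 6 h. Both passed as lower at both times, BLK by only 1.15-fold at 6 h (edgeR adjusted p = 0.00129). Per kilobase of exon, the summed level of the 4 kinases was shared almost equally by BLK (31.2%), LCK (30.1%) and LYN (29.1%) at 0 h. At 3 h LYN held 38.3% ± 0.788 (SD, n = 3) and LCK 24.1% ± 0.652 (SD, n = 3).

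With TMM scaling SYK and BTK, the kinases that carry the signal to PLCG2, were higher at 6 h and not at 3 h. SYK (ENSG00000165025) had 469, 470.0 and 410.3 CPM at 0 h, 419, 417 and 409 CPM at 3 h and 560.0, 541 and 566 CPM at 6 h. The 6 h libraries were above all others, with log2 0.30 (SE 0.055, edgeR adjusted p = 0.000198) against 0 h and 0.42 (SE 0.055, edgeR adjusted p = 4.16e-05) against 3 h. At 3 h it overlapped 0 h (log2 -0.12, edgeR adjusted p = 0.0783), and without untreated replicate 3 it passed as lower there (log2 -0.18, edgeR adjusted p = 0.000622). BTK (ENSG00000010671) had 100.4, 98.9 and 93.5 CPM at 0 h, 91.4, 98.4 and 94.6 CPM at 3 h and 117, 113 and 115 CPM at 6 h. It showed the same course, at log2 -0.04 (edgeR adjusted p = 0.469) at 3 h and 0.24 (SE 0.049, edgeR adjusted p = 0.000569) at 6 h. At 3 h both passed as lower with upper-quartile factors (SYK log2 -0.27, edgeR adjusted p = 0.000294, and BTK log2 -0.19, edgeR adjusted p = 0.00161) and with library size alone (-0.32, edgeR adjusted p = 9.63e-05, and -0.24, edgeR adjusted p = 0.000374). With library size alone the 6 h value of SYK was 0.07 (edgeR adjusted p = 0.223). That of BTK was 0.00 (edgeR adjusted p = 0.935), and with upper-quartile factors its adjusted p was 0.0723. The BTK call against 0 h was thus lost under both of these scalings. The SYK call was lost with library size alone and kept with upper-quartile factors. ZAP70 (ENSG00000115085), the T cell relative of SYK, had 8.87, 9.11 and 8.84 CPM at 0 h, 9.91, 10.6 and 11.4 CPM at 3 h and 17.8, 16.9 and 16.4 CPM at 6 h. All 3 groups were apart, and at 6 h it was 1.91-fold higher (log2 0.93, SE 0.069, edgeR adjusted p = 2.78e-08), a call kept under every scaling tried. Its 3 h difference (log2 0.25, edgeR adjusted p = 0.0067) had an adjusted p of 0.231 with upper-quartile factors and 0.572 with library size alone. Per kilobase of exon ZAP70 stayed far below SYK, at 3.34 against 107 CPM per kilobase at 6 h, and its share of their sum was 1.99% at 0 h and 3.03% at 6 h. The summed CPM of the T cell markers, given above, rose with time as ZAP70 did, and 2 of the 10 markers were tested. These were IL7R, with a mean of 2.84 CPM at 0 h and 3.77 at 6 h, and CD28, with 0.047 and 0.66. CD4 went from 0.095 to 0.030 CPM, CD3E and CD3G did not rise, and CD3D, CD2, CD7, CD8A and CD8B had 0 reads.

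SYK reads per PTPN6 read describe a kinase beside a phosphatase. The ratio was 36.3, 33.1 and 27.5 at 0 h, 80.4, 90.3 and 77.4 at 3 h and 149.6, 170.4 and 158 at 6 h. It was higher at each step in every library, without scaling between libraries.

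The adaptors split. BLNK (ENSG00000095585), the scaffold on which SYK, BTK and PLCG2 meet, had 71.7, 71.5 and 73.9 CPM at 0 h, 52.5, 50.5 and 51.7 CPM at 3 h and 45.6, 42.05 and 46.5 CPM at 6 h. The groups were apart and fell at each step, at log2 -0.49 (SE 0.051, edgeR adjusted p = 1.09e-06) at 3 h and -0.70 (SE 0.051, edgeR adjusted p = 2.53e-08) at 6 h. DAPP1, an adaptor that binds the lipid products of PI3K, had a mean of 103 ± 2.12 CPM (SD, n = 3) at 0 h, 91.6 ± 3.70 at 3 h and 72.8 ± 1.44 at 6 h. It was 1.42-fold lower at 6 h (edgeR adjusted p = 3.97e-07). PIK3AP1, the adaptor BCAP that brings PI3K to the receptor, went the other way. Its mean was 229.8 ± 19.8 CPM (SD, n = 3) at 0 h, 302 ± 4.86 at 3 h and 273 ± 5.29 at 6 h, and the log2 fold change was 0.40 (SE 0.058, edgeR adjusted p = 3.51e-05) at 3 h, a rise kept under every scaling tried. Between the treated times it was -0.15 (edgeR adjusted p = 0.0527), which passed as lower without untreated replicate 3 (edgeR adjusted p = 0.00221). At 6 h against 0 h it was 0.25 (edgeR adjusted p = 0.00167), and its adjusted p was 0.102 with upper-quartile factors and 0.854 with library size alone. GRB2, which links receptors to SOS proteins, passed at neither time (means 340.2 ± 12.04, 324 ± 12.4 and 331 ± 9.19 CPM, SD, n = 3). It passed as lower at 3 h without untreated replicate 3 (log2 -0.10, edgeR adjusted p = 0.0439), and at both times with upper-quartile factors and with library size alone. BANK1 was not tested, having 1 read in untreated replicate 3 and 0 in the other 8 libraries.

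The upstream sequences of 2 adaptors that moved in opposite directions are shown because their 250 bases before the RefSeq transcription start hold 1 of the motifs searched and no annotated exon. Capitals mark CTTTGAT, a TCF/LEF motif, in DAPP1 (chr4:99816577-99816826, plus strand) and CACGTG, the E-box bound by MYC and its relatives, in PIK3AP1 (chr10:96720515-96720764, minus strand), both in GRCh38.p14 and written 5′ to 3′ on the gene's strand.
DAPP1: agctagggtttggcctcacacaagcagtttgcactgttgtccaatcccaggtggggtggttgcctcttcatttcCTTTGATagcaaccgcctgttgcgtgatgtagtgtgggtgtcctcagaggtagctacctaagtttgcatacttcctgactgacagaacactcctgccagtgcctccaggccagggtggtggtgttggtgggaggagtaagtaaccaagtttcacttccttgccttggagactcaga
PIK3AP1: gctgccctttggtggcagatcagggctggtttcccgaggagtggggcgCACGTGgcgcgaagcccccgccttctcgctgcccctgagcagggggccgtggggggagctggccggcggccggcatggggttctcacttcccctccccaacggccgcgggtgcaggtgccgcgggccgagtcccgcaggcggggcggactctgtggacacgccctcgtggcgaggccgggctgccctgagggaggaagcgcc
Promoter windows of 300 bases, from 250 before to 50 after each start, were matched for 38 of the 42 members, giving 72 windows. On either strand, CTTTGAT was in 6 of them (8.33%, against 2.62% of 35116 windows of all genes), belonging to DAPP1, FYN, LILRB1, PTPN6 and ZAP70. Of these genes, DAPP1, FYN, LILRB1 and PTPN6 were lower at 6 h and ZAP70 was higher. CACGTG was in 5 windows (6.94%, against 7.26% of all), belonging to CR2, NFATC3, PIK3AP1, VAV2 and ZAP70, of which PIK3AP1 and ZAP70 were higher at 6 h and the others lower. The octamer ATGCAAAT, known from immunoglobulin promoters, was in 1 window (1.39%, against 1.77% of all), that of PRKCB. These are letter matches in a fixed window and say nothing of binding.

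PLCG2 (ENSG00000197943), the phospholipase that splits a membrane lipid into the calcium-releasing and PKC-activating messengers, had 488, 489.7 and 425 CPM at 0 h, 408, 408 and 396 CPM at 3 h and 339, 338 and 336 CPM at 6 h. It fell in 2 steps with no overlap between groups, at log2 -0.21 (SE 0.055, edgeR adjusted p = 0.00397) at 3 h and -0.47 (SE 0.055, edgeR adjusted p = 3.49e-06) at 6 h.

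PI3K subunits moved apart. PIK3CD (ENSG00000171608), the catalytic subunit p110delta of lymphocytes, had 115, 113 and 104 CPM at 0 h, 60.5, 57.1 and 60.7 CPM at 3 h and 55.9, 57.7 and 54.05 CPM at 6 h. It was 1.86-fold lower at 3 h (log2 -0.89, SE 0.055, edgeR adjusted p = 5.53e-09) and 1.98-fold lower at 6 h (log2 -0.98, SE 0.055, edgeR adjusted p = 1.59e-09), with no call between the treated times. PIK3CA, the ubiquitous p110alpha, had a mean of 62.1 ± 8.88 CPM (SD, n = 3) at 0 h, 56.1 ± 3.04 at 3 h and 45.8 ± 1.01 at 6 h. It was 1.36-fold lower at 6 h (edgeR adjusted p = 0.000514) and passed as lower at 3 h only without untreated replicate 3 (log2 -0.26, edgeR adjusted p = 0.000197), with upper-quartile factors or with library size alone. KCNMB3 on the opposite strand covers 35.8% of its exon bases, so its counts are uncertain. PIK3R1, the regulatory subunit p85alpha, had 62.5, 63.4 and 46.05 CPM at 0 h, 77.2, 78.3 and 75.2 CPM at 3 h and 65.7, 70.3 and 66.9 CPM at 6 h. All treated libraries were above the untreated ones, and untreated replicate 3 was the lowest. The log2 fold change was 0.42 (SE 0.098, edgeR adjusted p = 0.0023) at 3 h and 0.24 (SE 0.098, edgeR adjusted p = 0.0466) at 6 h. Without untreated replicate 3 the 6 h value was 0.10 (edgeR adjusted p = 0.0641), and with library size alone the 3 h adjusted p was 0.0622. At 6 h the value was 0.094 (edgeR adjusted p = 0.387) with upper-quartile factors and 0.0045 (edgeR adjusted p = 0.97) with library size alone. Between the treated times it was -0.19 (edgeR adjusted p = 0.15), which passed as lower without untreated replicate 3 (edgeR adjusted p = 0.0011). The 6 h call was also lost without any one of the 6 treated libraries (edgeR adjusted p from 0.0595 to 0.112). Within libraries, PIK3R1 had 0.543, 0.561 and 0.445 reads per PIK3CD read at 0 h, 1.27, 1.37 and 1.24 at 3 h and 1.18, 1.22 and 1.24 at 6 h. The treated libraries were all above the untreated ones.

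**Figure D3:**
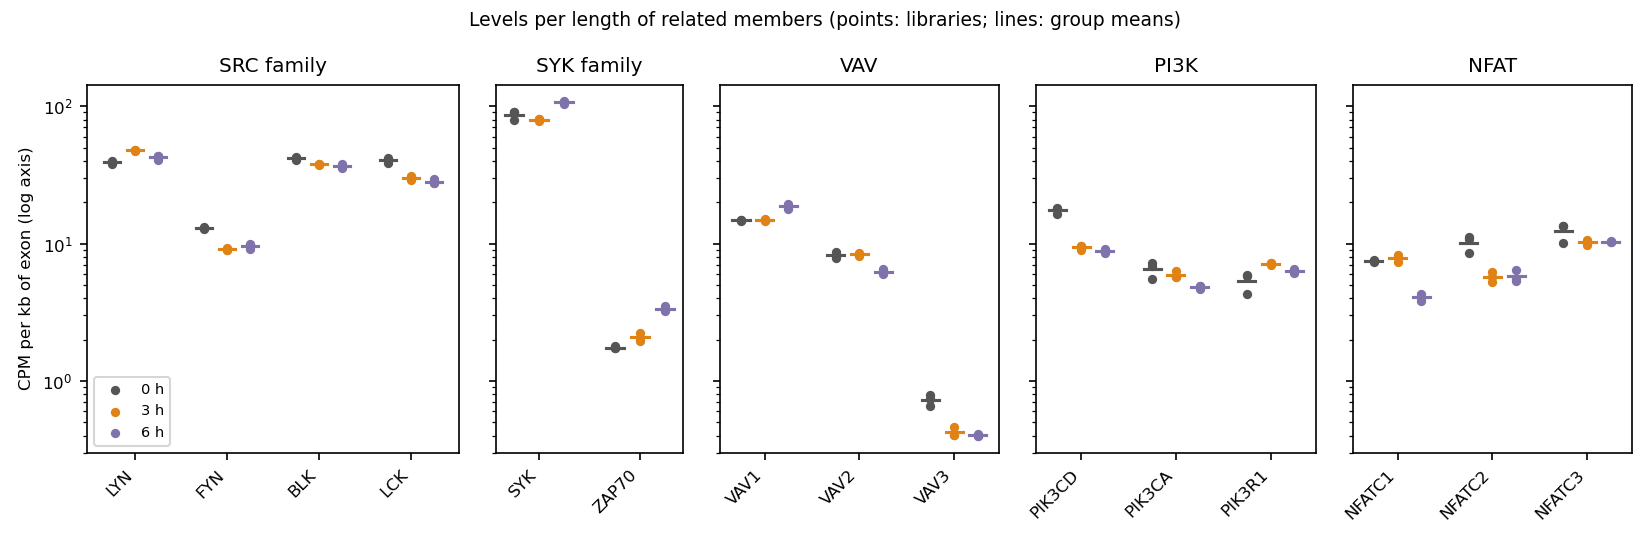
CPM per kilobase of exon (log axis) of related members in each library, with points for libraries and lines for the means of 3 libraries. SYK lies far above ZAP70 and VAV1 above VAV3 at every time, while PIK3CD drops from 17.5 to 9.39 CPM per kilobase at 3 h and PIK3R1 goes from 5.32 to 7.14.

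The exchange factors differed member by member. RASGRP3 (ENSG00000152689), which is activated by diacylglycerol and loads RAS with GTP, had 266, 259 and 233 CPM at 0 h, 118, 125 and 120.1 CPM at 3 h and 112, 112 and 111 CPM at 6 h. It was 2.09-fold lower at 3 h (log2 -1.06, SE 0.055, edgeR adjusted p = 1.06e-09) and 2.27-fold lower at 6 h (log2 -1.18, SE 0.055, edgeR adjusted p = 2.68e-10). Between the treated times it was -0.12 (edgeR adjusted p = 0.0879), which passed as lower without untreated replicate 3 (edgeR adjusted p = 0.0127). VAV3 (ENSG00000134215), of the VAV family that activates small GTPases such as RAC, had 5.74, 5.33 and 4.75 CPM at 0 h, 2.94, 2.92 and 3.35 CPM at 3 h and 2.89, 2.98 and 2.88 CPM at 6 h. It was 1.72-fold lower at 3 h (edgeR adjusted p = 8.74e-06) and 1.81-fold lower at 6 h (edgeR adjusted p = 3.58e-06). VAV1, the blood cell form, had a mean of 63.7 ± 0.482 CPM (SD, n = 3) at 0 h, 63.9 ± 0.73 at 3 h and 80.5 ± 3.51 at 6 h. VAV2, the widely expressed form, had 46.9 ± 2.60 CPM (SD, n = 3), then 47.4 ± 1.12 and 35.3 ± 1.51. Neither passed at 3 h, where both had a negative and called fold change with upper-quartile factors and with library size alone. At 6 h they had moved in opposite directions, VAV1 1.26-fold up (edgeR adjusted p = 1.96e-05) and VAV2 1.33-fold down (edgeR adjusted p = 1.48e-05), and both calls were kept under every scaling tried. Reads of VAV1 per VAV2 read were 1.38, 1.27 and 1.43 at 0 h, 1.36, 1.37 and 1.32 at 3 h and 2.27, 2.23 and 2.34 at 6 h. The shift was thus seen after 3 h in all 3 libraries. SOS1, the RAS exchange factor bound by GRB2, passed at neither time (means 56.6 ± 9.72, 60.04 ± 2.05 and 63.6 ± 3.99 CPM, SD, n = 3), but was higher at 6 h without untreated replicate 1 (log2 0.26, edgeR adjusted p = 0.0412).

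**Figure D4:**
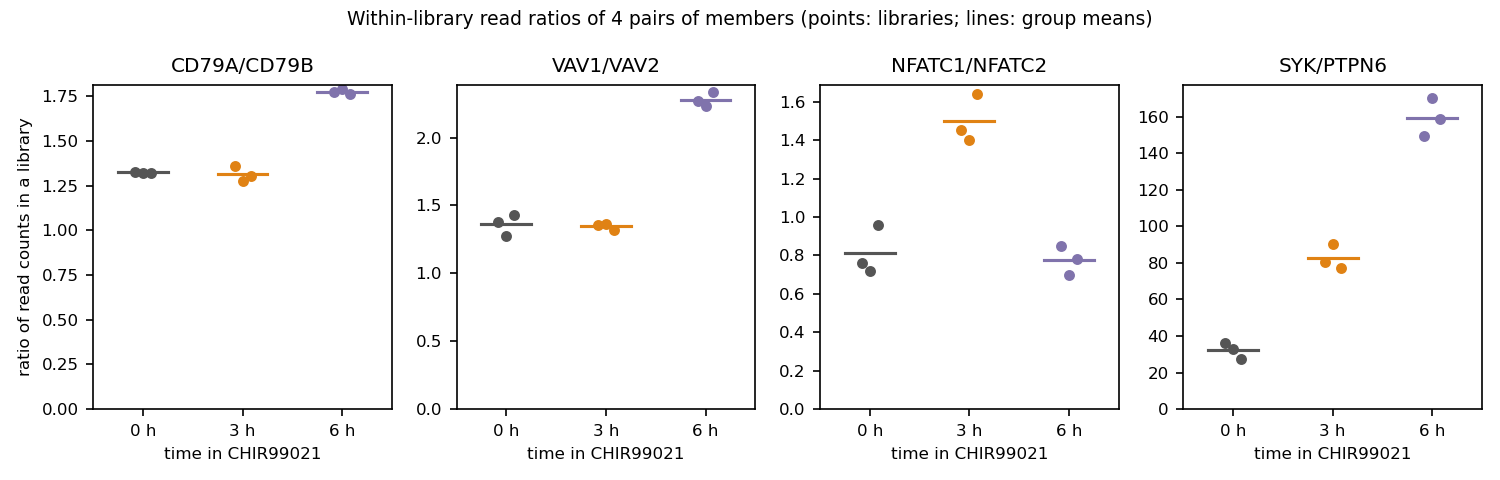
Ratio of read counts within each library for 4 pairs of members chosen after their values were seen, with points for libraries and lines for the means of 3 libraries. CD79A/CD79B and VAV1/VAV2 are level from 0 h to 3 h and higher at 6 h, NFATC1/NFATC2 is high at 3 h alone, and SYK/PTPN6 is higher at each step.

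Protein kinase C genes fell at different times. PRKCD (ENSG00000163932), PKC delta, had 83.4, 82.4 and 82.8 CPM at 0 h, 52.7, 50.8 and 52.97 CPM at 3 h and 50.1, 47.8 and 48.9 CPM at 6 h. It was down 1.59-fold at 3 h (log2 -0.67, SE 0.046, edgeR adjusted p = 1.6e-08) and 1.69-fold at 6 h (log2 -0.76, edgeR adjusted p = 3.39e-09). PRKCB (ENSG00000166501), PKC beta, which acts on the way from the receptor to NF-kappaB, had 6.78, 6.59 and 5.88 CPM at 0 h, 5.73, 6.25 and 5.37 CPM at 3 h and 2.98, 3.17 and 3.02 CPM at 6 h. At 3 h it overlapped 0 h (log2 -0.15, edgeR adjusted p = 0.146), and at 6 h all libraries were below (log2 -1.07, SE 0.095, edgeR adjusted p = 1.85e-07). With upper-quartile factors and with library size alone PRKCB passed as lower at 3 h too. BCL10 and MALT1 belong to the complex that activates NF-kappaB. MALT1, its protease, had a mean of 30.8 ± 2.40 CPM (SD, n = 3) at 0 h, 36.5 ± 0.802 at 3 h and 38.98 ± 2.38 at 6 h. It passed as higher at both times, by 1.27-fold at 6 h (edgeR adjusted p = 0.000301), but had an adjusted p of 0.552 at 3 h and 0.145 at 6 h with library size alone, and of 0.191 at 3 h with upper-quartile factors. BCL10 had 25.7 ± 1.07 CPM (SD, n = 3), then 28.3 ± 1.40 and 22.5 ± 0.554. It was 1.15-fold lower at 6 h (edgeR adjusted p = 0.00716), and its 3 h rise of log2 0.14 (edgeR adjusted p = 0.0459) came with overlapping groups and turned to -0.02 with upper-quartile factors and to -0.07 with library size alone. That 3 h call was also lost without untreated replicate 2 or 3, 3 h replicate 5 or 7, or 6 h replicate 9 or 11 (edgeR adjusted p from 0.054 to 0.186).

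Of the 5 members in calcium release, calcium entry and NFAT, 4 were called lower at each time. STIM1 (ENSG00000167323), the sensor of calcium in the endoplasmic reticulum, had 107, 110.2 and 102 CPM at 0 h, 76.9, 77.6 and 76.7 CPM at 3 h and 47.6, 49.7 and 46.9 CPM at 6 h. The groups were far apart and fell in 2 steps, at log2 -0.47 (SE 0.048, edgeR adjusted p = 1.01e-06) at 3 h and -1.15 (SE 0.049, edgeR adjusted p = 1.32e-10) at 6 h. ITPR1 (ENSG00000150995), a receptor that releases stored calcium, had 78.7, 76.1 and 52.6 CPM at 0 h, 41.3, 44.4 and 39.1 CPM at 3 h and 49.2, 60.8 and 53.3 CPM at 6 h. It was lower at 3 h (log2 -0.73, SE 0.14, edgeR adjusted p = 0.00144), while at 6 h it overlapped untreated replicate 3 (log2 -0.35, SE 0.14, edgeR adjusted p = 0.0548). Without untreated replicate 3 the 6 h value passed as lower (log2 -0.51, edgeR adjusted p = 8.68e-05), as it did without 6 h replicate 10 (log2 -0.43, edgeR adjusted p = 0.0224). With untreated replicate 3 left out, the 6 h level was also called higher than the 3 h level (log2 0.39, edgeR adjusted p = 0.000899). With all libraries, ITPR1 at 6 h passed as lower in DESeq2 (log2 -0.35, adjusted p = 0.0107), in limma-voom (adjusted p = 0.0366), and in edgeR with upper-quartile factors (adjusted p = 0.0084) or library size alone (adjusted p = 0.00427). The rise from 3 h to 6 h passed in DESeq2 (adjusted p = 0.00897) and limma-voom (adjusted p = 0.0339) too.

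The 3 NFAT genes, calcium-dependent transcription factors, followed different courses. NFATC1 (ENSG00000131196) had 68.4, 66.2 and 67.3 CPM at 0 h, 74.5, 66.6 and 71.9 CPM at 3 h and 38.9, 37.2 and 34.5 CPM at 6 h. It overlapped 0 h at 3 h (log2 0.08, edgeR adjusted p = 0.248) and was 1.82-fold lower at 6 h (log2 -0.87, SE 0.058, edgeR adjusted p = 1.07e-08). NFATC2 (ENSG00000101096) had 90.1, 91.8 and 70.2 CPM at 0 h, 51.4, 47.6 and 43.8 CPM at 3 h and 45.7, 53.4 and 44.1 CPM at 6 h. The treated groups overlapped: it was lower at 3 h (log2 -0.82, SE 0.11, edgeR adjusted p = 4.01e-05), and at 6 h it was 1.76-fold lower (edgeR adjusted p = 3.63e-05). NFATC1 reads per NFATC2 read were 0.759, 0.721 and 0.959 at 0 h, 1.45, 1.40 and 1.64 at 3 h and 0.851, 0.698 and 0.783 at 6 h, so the ratio was higher at 3 h and overlapped at 0 h and 6 h. NFATC3 went from 119, 117 and 88.8 CPM to 90.2, 93.9 and 86.1 CPM at 3 h and 89.7, 90.8 and 91.5 CPM at 6 h. Its groups overlapped, and its calls of log2 -0.27 (edgeR adjusted p = 0.0205) at 3 h and -0.26 (edgeR adjusted p = 0.0231) at 6 h were each lost without untreated replicate 1 (edgeR adjusted p = 0.0785 and 0.0906) or untreated replicate 2 (edgeR adjusted p = 0.0783 and 0.0897). The 3 h call also failed without 3 h replicate 5 or 7 (edgeR adjusted p = 0.0558 and 0.0795), and the 6 h call without 6 h replicate 9, 10 or 11 (edgeR adjusted p = 0.0673, 0.06 and 0.0553). A transcript on the opposite strand shares 31.8% of the exon bases of NFATC3. Genes on the same strand share 15.7% and 3.24%, so its counts are uncertain.

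Between 3 h and 6 h, 21 members differed (43.4% of all genes), 5 higher (21.5%) and 16 lower (21.9%), and the treated groups did not overlap for 29 members (55.2%). The 5 that rose after 3 h were CD79A, SYK, ZAP70, BTK and VAV1, of which the CD79A call was lost without 3 h replicate 6 (edgeR adjusted p = 0.0626) or 6 h replicate 9 (0.061). NFATC1, at 1.92-fold (edgeR adjusted p = 5.7e-08), and PRKCB, at 1.89-fold (edgeR adjusted p = 6.35e-06), fell furthest after 3 h, followed by STIM1 at 1.60-fold (edgeR adjusted p = 1.99e-07). These 3 were the members at least 1.5-fold lower (6.01% of all genes), and ZAP70 was the 1 at least 1.5-fold higher (4.87%).

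The rest of the pathway was measured through a list of 98 other genes, of which 95 were found and 85 tested. At 3 h, 33 of them were higher (32.8% of all genes) and 35 lower (33.5%), with a median log2 fold change of -0.0043. At 6 h 26 were higher (35.7% of all genes) and 38 lower (35%), with a median of -0.09. With upper-quartile factors the counts were 19 and 43 at 3 h and 20 and 49 at 6 h. With library size alone they were 18 and 44 at 3 h and 19 and 52 at 6 h. The background moved too. Of all 15847 genes, upper-quartile factors gave 3852 higher and 6854 lower at 3 h and 4352 and 6736 at 6 h. Library size alone gave 3468 higher and 7451 lower of all genes at 3 h and 3656 and 7504 at 6 h. Of 14 tested genes of the NF-kappaB arm, 11 were higher and 1 lower at 3 h, and 6 higher and 2 lower at 6 h. That lean at 3 h shrank to 6 higher and 2 lower with upper-quartile factors and to 5 and 2 with library size alone. NFKBIA, the inhibitor IkappaB alpha, had a mean of 62.4 CPM at 0 h, 93.3 CPM at 3 h and 74.9 CPM at 6 h. NFKBIB, a second such inhibitor, went from 56.5 CPM to 95.8 CPM at 3 h and 95.0 CPM at 6 h. Both passed as higher at 3 h (edgeR adjusted p = 2.54e-07 and 1.43e-06).

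Adaptors and RAS genes outside the member list moved both ways. With TMM scaling the counts by role are read against the shares over all genes. These were 32.8% higher and 33.5% lower at 3 h and 35.7% and 35% at 6 h. Counts by role under another scaling are read against those of all genes under that scaling, given above. With upper-quartile factors and with library size alone, more of all genes were lower than higher at both times. Of 17 other adaptors, 5 were higher and 9 lower at 3 h, and 4 higher and 9 lower at 6 h. With upper-quartile factors and with library size alone alike, these were 4 and 12, then 3 and 13. SHC1, an adaptor to RAS, rose from 71.3 to 125 CPM at 3 h (log2 0.81, edgeR adjusted p = 2.69e-09) and stood at 90.2 CPM at 6 h. GAB1, a docking protein for PI3K, fell from 124 to 41.2 CPM at 3 h (log2 -1.59, edgeR adjusted p = 5.45e-09) and 34.96 CPM at 6 h. LAT2, a membrane adaptor of B cells, fell mostly after 3 h, from 140 CPM to 96.6 CPM and 41.0 CPM (6 h log2 -1.77, edgeR adjusted p = 6.99e-12). Of 17 RAS and MAP kinase genes, 7 were higher and 8 lower at 3 h and 6 higher and 9 lower at 6 h, and with library size alone 5 and 9, then 6 and 11. SOS2, an exchange factor for RAS, fell from 57.3 to 26.3 CPM at 3 h (edgeR adjusted p = 1.30e-08).

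ORAI3, a calcium channel subunit gated by STIM proteins, fell from 7.99 to 2.02 CPM at 3 h (log2 -1.98, edgeR adjusted p = 3.11e-10). Its relative ORAI2 rose from 697 to 1012 CPM (log2 0.54, edgeR adjusted p = 1.52e-07). ORAI1, also on the list, was not found among the genes counted, so it was not measured. NFATC4, a further NFAT gene, fell from 108 CPM to 57.9 CPM at 3 h and 21.1 CPM at 6 h (log2 -2.35, edgeR adjusted p = 1.93e-12). Of the 16 other calcium and NFAT genes tested, 5 were higher and 7 lower at 3 h and 3 higher and 7 lower at 6 h, and with library size alone 2 and 8, then 2 and 12. PTPN22, a phosphatase of Src and SYK family kinases, fell from 89.0 to 50.7 CPM at 3 h (edgeR adjusted p = 1.41e-08). It was 1 of 9 other kinases and phosphatases tested. Of these, 6 were lower and 2 higher at 3 h, and 5 lower and 3 higher at 6 h. With library size alone the counts were 7 and 1, then 6 and 2. Of 4 other co-receptors and inhibitory receptors tested, 2 were lower at each time, with 0 higher at 3 h and 1 at 6 h. With library size alone 2 were lower and 0 higher at both times. Of 8 other PI3K and AKT genes, 3 were higher and 2 lower at 3 h and 3 higher and 4 lower at 6 h, and with library size alone 1 and 4, then 3 and 4.

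**Figure D5:**
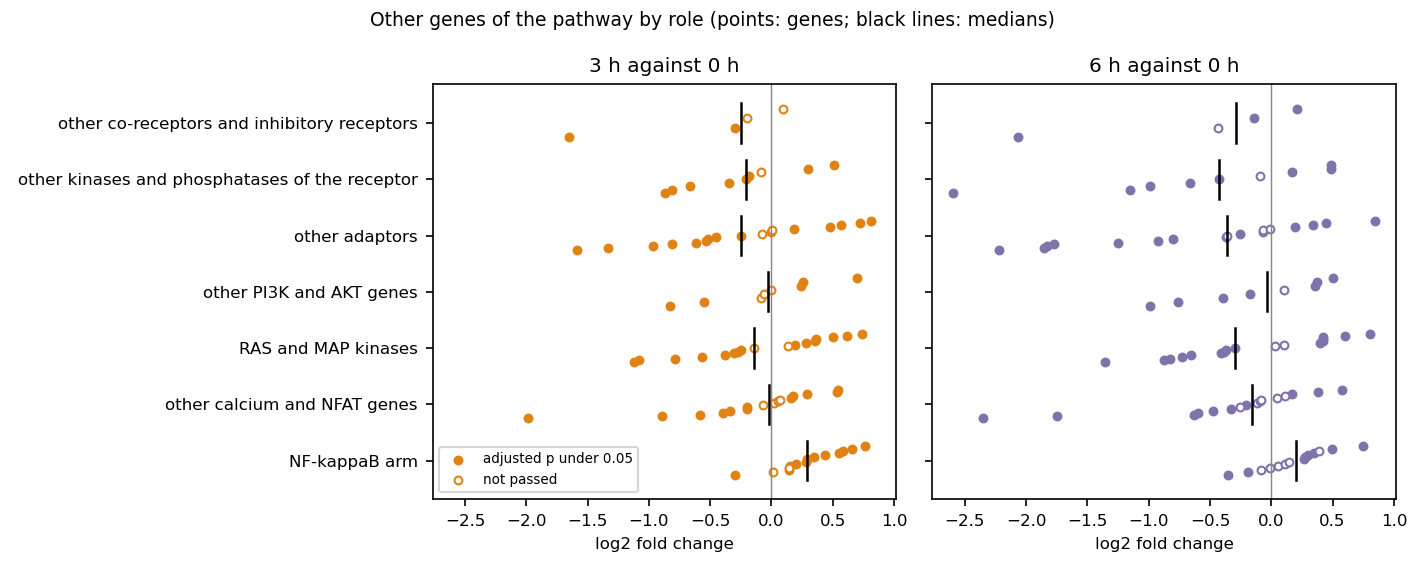
Log2 fold change of the 85 other tested genes of the pathway at 3 h and 6 h against 0 h, by role, with 1 point per gene, filled where the edgeR adjusted p was under 0.05, and black lines for the median of each role. The genes of the NF-kappaB arm have a median of 0.29 at 3 h and 0.20 at 6 h with TMM scaling (0.09 and -0.03 with library size alone), and the other roles have medians below 0.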

How the data were processed

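RNA was sequenced from 9 libraries of Ramos cells in 3 groups of 3. The deposited table holds raw read counts per gene, made by the authors from reads aligned to hg19 with GSNAP 2015-12-31 and counted with HTSeq 0.6.0, per the submitters' processing notes, which also name limma 3.30.0. The gene annotation, the strand setting and the handling of reads in several genes are not given in the sources used here. Reads in genes made up 67.6 to 70.9% of each column, and the 5 summary rows of HTSeq were left out of library sizes and tests.

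From these counts, genes kept by edgeR's filterByExpr (minimum count 10, minimum total count 15) were scaled by TMM and fitted with edgeR 4.0.16 in R 4.3.3, with 1 mean per group over all 9 libraries and 6 residual degrees of freedom. The quasi-likelihood test with robust dispersion gave p-values adjusted by the Benjamini-Hochberg method over 15847 genes. Standard errors were derived from the test statistic. Levels per kilobase used the exon union of GENCODE release 29 (GRCh38), matched by gene ID. Promoter sequences came from RefSeq (GRCh38.p14). Depth sets a floor of 3 reads, or 0.0516 to 0.0692 CPM, for counting error only. The edgeR test of 3 h against 0 h was tried on simulated counts in which few genes changed. That does not check the scaling where most genes change, and the other steps were not tried this way.

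CD79A, CD79B, SYK, BTK, PLCG2, BLNK and each member that passed with at least 1.5-fold in any comparison and a mean of at least 1 CPM are given in every library, 25 members in all. LYN, PIK3R1 and NFATC3 were added to these after their values were seen. Other pathway genes named with values are among the 6 with the smallest p in a direction and comparison. The members and lists were chosen with earlier results of these data known. The settings tried besides were limma-voom (limma 3.58.1), DESeq2 1.42.0, other scalings and filters, a minimum fold of 1.2, fits of the compared groups alone and leaving out each library. Some genes of the pathway list are not reported here by name.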

Additional observations from a re-analysis of the deposited data

Results flagged for a closer look

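The effect at 6 h differed from the effect at 3 h, by the edgeR test between the treated groups, for 21 members, given here as the log2 effect at 6 h minus that at 3 h. It was larger at 6 h for ZAP70 (0.68), SYK (0.42), VAV1 (0.33), BTK (0.28) and CD79A (0.25). It was lower at 6 h for NFATC1 (-0.94), PRKCB (-0.92), STIM1 (-0.68), INPP5D (-0.57) and PTPN6 (-0.53). VAV2 (-0.42), CD81 (-0.37), DAPP1 (-0.33) and BCL10 (-0.33) followed. PIK3CA (-0.29), CD72 (-0.27), PLCG2 (-0.26), BLNK (-0.21), CD79B (-0.19), LYN (-0.17) and CD22 (-0.16) had the smaller differences. The call of CD79B was lost without 3 h replicate 5 or 7 or 6 h replicate 10 or 11 (edgeR adjusted p from 0.0919 to 0.16), that of PIK3CA without 3 h replicate 6 or 6 h replicate 9 (0.0683 and 0.0584), and that of CD79A without the same libraries (0.0626 and 0.061).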

How the results depend on the processing

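Of 120 member results (40 tested members in 3 comparisons), 64 kept their direction and their side of the threshold in all 18 alternatives. CR2, CD22, CD72, LILRB1, PTPRC, PTPN6, INPP5D, CBLB, FYN, LCK, BLNK, PIK3CD, VAV3, RASGRP3, PRKCD, STIM1 and NFATC2 did so in both comparisons with 0 h. Counts of higher members depended on the scaling, whose shift of all genes is given in the report. Members higher at 3 h numbered 8, and 4 with upper-quartile factors, 1 with library size alone and 2 when tested against a minimum fold of 1.2. Members higher at 6 h numbered 9, and 5, 3 and 3 under these settings. Against 3 h, members higher at 6 h went from 5 to 2 and those lower from 16 to 6 with the minimum fold. Other pathway genes higher at 3 h went from 33 to 19, 18 and 17 under the same 3 settings, and those lower from 35 to 21 with the minimum fold. Values that changed sign, and were called on at least one side, were those of LYN at 6 h (-0.028 with upper-quartile factors, -0.12 with library size alone), VAV1 at 3 h (-0.15 and -0.20), VAV2 at 3 h (-0.14 and -0.19) and BCL10 at 3 h (-0.016 and -0.065), all log2 against 0 h; the cause was not tested. Values called on neither side also changed sign, among them NFATC1 at 3 h (0.08 to -0.076 and -0.13 under the same settings), SOS1 at 3 h (0.08 to -0.067 and -0.12) and CD79B at 6 h (0.14 to -0.0092 and -0.098), VAV1 at 3 h in DESeq2 (-0.0017) and VAV2 at 3 h without untreated replicate 3 (-0.025). Leaving out 1 library at a time gave 7 to 8 members higher and 22 to 26 lower at 3 h, 7 to 9 higher and 26 to 28 lower at 6 h, and 4 to 6 higher and 15 to 19 lower at 6 h against 3 h. Without untreated replicate 3 these were 7 and 26, 9 and 28, and 6 and 19. No paired analysis was possible because the groups share no replicate numbers. With 3 libraries a group, a difference that did not pass is not shown to be absent, and depth bars any statement on FCGR2B and BANK1.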
